A study of Mus musculus with 8 samples.

Results

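Genes of the megakaryocyte lineage were followed in mouse bone marrow hematopoietic stem cells (HSCs) of 3 Nras genotypes: Itga2b, Vwf, Pf4, Gp9, Gp1bb, Gp5, Selp, Nfe2 and Fli1. The members were all non-control probes that the array's design names for one of these 9 genes, whatever their values. Of the 41174 probes on the array, 12 met this rule, and they stood for 8 of the 9 genes, out of 27745 gene names in the design. Pf4, the chemokine platelet factor 4, had no probe under that name. A probe that the design calls Cxcl4 carries the Pf4 transcript's accession and is given beside the members.

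Total RNA of HSCs from B6 mice was hybridised to 8 Agilent 1-colour arrays, 1 sample on each. The groups were Nras+/+ with 2 arrays (the controls, with no mutant allele), NrasG12D/+ with 3 arrays (1 mutant allele) and NrasG12D/G12D with 3 arrays (2 mutant alleles). NrasG12D encodes an always active version of Nras, a small GTPase of growth factor signalling. The sources used here do not say how or in which cells the allele was switched on, how old the mice were, or whether each sample came from its own animal. The p-values therefore measure the spread between these samples, which may be partly technical.

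Megakaryocytes are the marrow cells that shed platelets. Their surface carries integrin αIIb (Itga2b), which pairs with β3 to bind fibrinogen, and the glycoprotein Ib-IX-V complex, a receptor for von Willebrand factor built from the products of Gp1ba, Gp1bb, Gp9 and Gp5. Their granules store von Willebrand factor (Vwf), P-selectin (Selp) and platelet factor 4. NF-E2 (Nfe2) and Fli1 are transcription factors of platelet formation and of megakaryocyte genes. Some of these genes are also active in stem cells, since Vwf and Itga2b mark HSCs with a bias toward platelets, while Vwf and Selp are further made by endothelial cells.

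A probe was taken as measured only where the scanner software marked its spot as well above background. Of all probes 28.2% to 41.8% were so marked on 7 of the arrays, and 24.9% were on NrasG12D/G12D replicate 2. Signals not so marked still entered the group means, SDs and fits. The software gave 31.2% to 47.1% of the non-control spots of an array a surrogate value in place of a measured one. Median processed signals, that is intensities after background subtraction within the array, lay between 3.09 and 6.75. Arrays differed in brightness: the 75th percentile of the 6188 probes above background on all 8 arrays ranged from a signal of 110 to 360. Signals below are therefore followed by levels, which are log2 signals minus that array's 75th percentile. The 8 arrays lay on 2 slides: the Nras+/+ arrays shared slide 1 with the first and second NrasG12D/+ replicates, and NrasG12D/+ replicate 3 was on slide 2 beside all NrasG12D/G12D samples. Fewer cells of a type and less RNA per cell cannot be told apart in these samples.

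The probes that carry the results are shown because pairs of probes for 1 gene gave different answers, and the letters show which stretch of the transcript each one read. Sequences are given 5′ to 3′ as the files hold them, in lower case, since the whole probe hybridises. Each probe is 60 bases long. Of probe A_51_P103397 (Vwf) and probe A_51_P211854 (Selp) the first 30 bases are shown.
Itga2b A_52_P459564: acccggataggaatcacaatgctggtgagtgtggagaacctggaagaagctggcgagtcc
Gp1bb A_51_P151576: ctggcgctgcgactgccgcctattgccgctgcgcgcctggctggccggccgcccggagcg
Vwf A_51_P103406: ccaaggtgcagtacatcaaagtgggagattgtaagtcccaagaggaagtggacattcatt
Vwf A_51_P103397: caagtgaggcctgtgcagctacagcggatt
Selp A_52_P57843: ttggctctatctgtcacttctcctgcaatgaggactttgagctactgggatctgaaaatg
Selp A_51_P211854: atgcctgctttaagatctcctgggtcttcc

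The files place these probes on a genome whose build they do not state. The Itga2b probe lies on chromosome 11 at 102274229 to 102274437 on the minus strand, 209 bases for a probe of 60, so that it spans a gap in the genome. The Gp1bb probe lies on chromosome 16 at 18534577 to 18534636, minus strand. Vwf probes A_51_P103406 and A_51_P103397 start 693 bases apart on chromosome 6, and a further Vwf probe, A_51_P206886, was designed on another transcript record. The Selp probes start 8102 bases apart on chromosome 1, and the Fli1 probes, A_51_P370600 and A_52_P821, 1426 bases apart on chromosome 9. Exons and untranslated regions at these positions were not assigned, as no annotation of a known matching build was used here.

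Detection of the members varied widely. Probes for Itga2b and Gp1bb and Vwf probe A_51_P103397 were well above background on all 8 arrays. Gp9, Vwf probe A_51_P206886 and Fli1 probe A_52_P821 were above background on none, and Gp5 on 1. Of the 12 member probes, 5 and 7 were above background on Nras+/+ replicates 1 and 2, then 7, 6 and 3 on NrasG12D/+ replicates 1 to 3 and 3, 4 and 5 on NrasG12D/G12D replicates 1 to 3. NrasG12D/+ replicate 3 and NrasG12D/G12D replicate 1 showed the fewest. Over all probes, 35.6% and 30.4% were above background on Nras+/+ replicates 1 and 2. The shares were 40.5%, 41.8% and 28.2% on NrasG12D/+ replicates 1 to 3 and 29.7%, 24.9% and 29.2% on NrasG12D/G12D replicates 1 to 3. The part of array brightness in the members' counts was not tested.

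**Figure D1:**
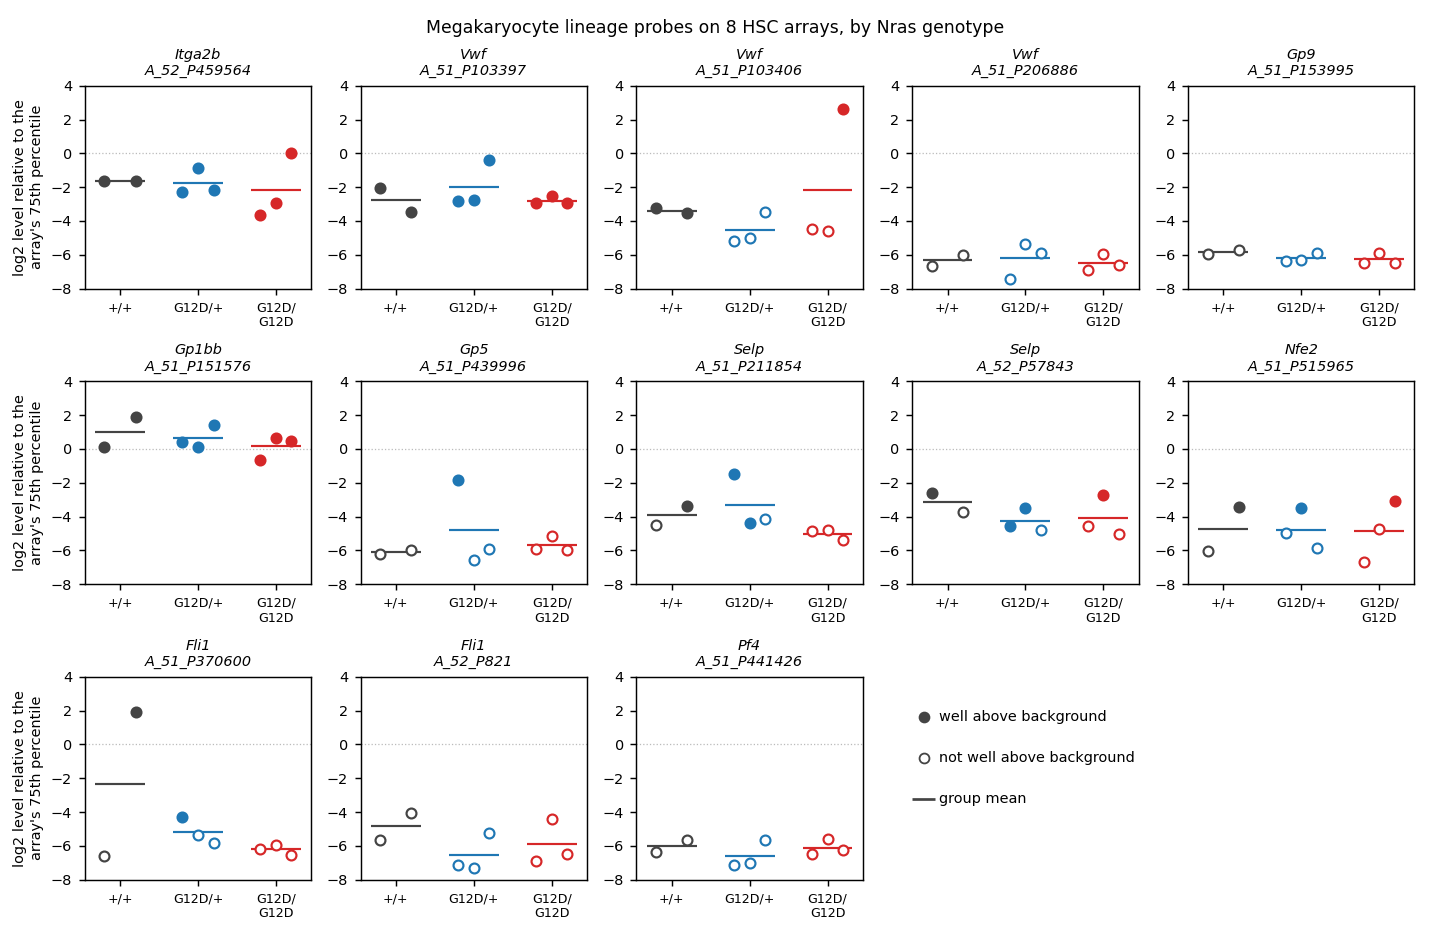
Level of each probe (log2 signal minus the array's 75th percentile, vertical axis) on each array, by Nras genotype, with filled points for probes well above background, open points for the rest and a line at the group mean. The Itga2b and Gp1bb probes are filled on all 8 arrays, whereas single arrays stand high for Vwf A_51_P103406, Gp5, Selp A_51_P211854 and Fli1 A_51_P370600.

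Among the receptor genes, Itga2b and Gp1bb were above background on every array. Itga2b, the αIIb chain, had processed signals of 60.8 and 35 on Nras+/+ replicates 1 and 2. Signals were 74.5, 148 and 28.3 on the NrasG12D/+ arrays and 21.8, 18.8 and 181 on the NrasG12D/G12D arrays. The Nras+/+ arrays agreed closely after scaling, with levels of -1.64 and -1.65, while the NrasG12D/G12D arrays held both the 2 lowest levels of the 8, -3.66 and -2.92, and the highest, 0.00. Group mean levels were -1.64 ± 0.01 (SD, n = 2), -1.76 ± 0.78 (n = 3) and -2.19 ± 1.94 (n = 3), so the groups overlapped. The log2 change was -0.12 (SE 1.11) for NrasG12D/+ and -0.55 (SE 1.11) for NrasG12D/G12D against Nras+/+, and -0.43 (SE 0.99) between the mutant genotypes. None passed, with limma adjusted p-values of 0.983, 0.895 and 0.960. The sign of these changes did not hold: against Nras+/+ the NrasG12D/+ change was 0.15 with scaling to the median, and the NrasG12D/G12D change was 0.10 in the deposited value table and 0.19 without NrasG12D/G12D replicate 1.

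Gp1bb encodes the β chain of glycoprotein Ib, which holds the von Willebrand factor receptor together at the surface. Its signals were 206 and 412 on the Nras+/+ arrays. They were 485, 291 and 329 on the NrasG12D/+ arrays and 176, 218 and 248 on the NrasG12D/G12D arrays. After scaling, the highest level was on Nras+/+ replicate 2, 1.91, and the lowest on NrasG12D/G12D replicate 1, -0.65, with all groups overlapping. Group mean levels were 1.01 ± 1.26 (SD, n = 2), 0.64 ± 0.66 (n = 3) and 0.14 ± 0.69 (n = 3), which fell in order of the number of mutant alleles. The change of NrasG12D/G12D from Nras+/+, -0.87, was smaller in size than the Nras+/+ SD and larger than the SDs of the mutant groups. The log2 changes were -0.37 (SE 0.86), -0.87 (SE 0.86) and -0.50 (SE 0.77), in the order used for Itga2b (limma adjusted p = 0.916, 0.787 and 0.928). The 95% intervals, -2.32 to 1.57, -2.82 to 1.07 and -2.24 to 1.24, include both a halving and a doubling. The order rested on Nras+/+ replicate 2: without it the changes against Nras+/+ were 0.52 and 0.02.

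Septin5 lies beside Gp1bb, and transcripts that run from the septin gene into Gp1bb are known, so a Gp1bb signal can come from either. This gene was chosen after its values were seen. Its nearer probe lies 896 bases from the Gp1bb probe on the same strand. It was above background on the 3 NrasG12D/+ arrays and on NrasG12D/G12D replicate 1 (77.3), and not on the other 4. NrasG12D/+ replicates 1 and 3 had signals of 24.5 and 70.6. That of NrasG12D/+ replicate 2 was near the detection limit, only slightly above the highest signal of the other 4 arrays. The further probe, 3083 bases away, was above background on no array. The signals of the nearer probe on those 4 arrays reached 9.34, close to the detection limit. The part of Septin5 transcripts in the Gp1bb signal was not tested.

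Gp9 and Gp5, further subunits of the same receptor, were dim on most arrays. Gp9 encodes its glycoprotein IX chain, and its signals ranged from 2.05 to 4.45 with no array above background. Gp5 encodes glycoprotein V, and its signal was 101 on NrasG12D/+ replicate 1 and between 1.76 and 4.63 on the other 7 arrays. Gp5 was thus measured on that array alone and was not tested.

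Von Willebrand factor was read by 3 probes that did not match. Vwf probe A_51_P103397 had signals of 46.3 and 10.1 on the Nras+/+ arrays. They were 51.9, 39.8 and 94.4 on the NrasG12D/+ arrays and 35.7, 24.5 and 23.5 on the NrasG12D/G12D arrays. NrasG12D/+ replicate 3 was highest in level, -0.42, Nras+/+ replicate 2 was lowest, -3.45, and the NrasG12D/G12D arrays lay close together at a mean of -2.81 ± 0.24 (SD, n = 3). The means of the other groups were -2.74 ± 1.0 (n = 2) in Nras+/+ and -1.99 ± 1.36 (n = 3) in NrasG12D/+. The log2 change was 0.75 (SE 0.93) for NrasG12D/+ and -0.07 (SE 0.93) for NrasG12D/G12D against Nras+/+, and -0.82 (SE 0.83) between the mutants (limma adjusted p = 0.845, 0.984 and 0.884). The first was -0.04 without NrasG12D/+ replicate 3 and -0.07 with normexp background correction, and the second was 0.57 in the deposited value table.

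Vwf probe A_51_P103406, in the same transcript, had signals of 19.8 and 9.59 on the Nras+/+ arrays, both well above background. It was not above background on the NrasG12D/+ arrays (10, 8.36 and 11.2), nor on NrasG12D/G12D replicates 1 and 2 (12.4 and 5.82). On NrasG12D/G12D replicate 3 the signal was 1100, a level of 2.60, which is 58.0-fold above the next highest array for this probe. The companion probe gave 23.5 on that array, one of its low values. NrasG12D/G12D against NrasG12D/+ had a log2 change of 2.40 (SE 1.73, limma adjusted p = 0.841), which was 0.02 without NrasG12D/G12D replicate 3. With 1 of 3 NrasG12D/G12D arrays measured and no NrasG12D/+ array, no lower limit of the fold follows. Against Nras+/+, NrasG12D/+ was at least 2.24-fold lower (adjusted p = 0.883), though its level on replicate 3, -3.49, overlapped the controls. NrasG12D/G12D against Nras+/+ had a log2 change of 1.23 (SE 1.93, adjusted p = 0.864), which was -1.16 without NrasG12D/G12D replicate 3 and -0.37 with the slide as a block. The third probe, A_51_P206886, had signals of 1.72 to 6.63, none above background.

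P-selectin was the member with most spots. Selp probe A_51_P211854 is printed at 10 places on each array, which gives a view of spot error that the single-spot probes lack. Its mean signals were 8.37 and 10.6 on the Nras+/+ arrays, 130.5, 12.7 and 7.08 on the NrasG12D/+ arrays and 9.71, 5.19 and 4.25 on the NrasG12D/G12D arrays. On NrasG12D/+ replicate 1 all 9 usable spots were above background, between 111 and 144, with an SD over spots of 0.11 on the log2 scale. On the other 7 arrays that SD was 0.39 to 0.67, and 8 spots or fewer were above background on each. The high value on NrasG12D/+ replicate 1 was therefore repeated by every usable spot of that array, though not by another array of the group.

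**Figure D2:**
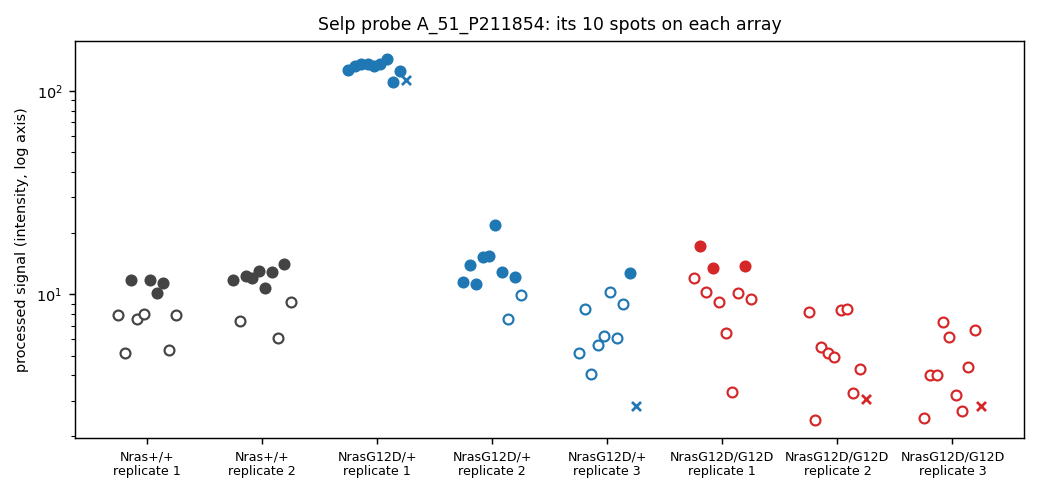
Processed signal (log axis) of each of the 10 spots of Selp probe A_51_P211854 on each array, with filled points for spots well above background, open points for the rest and crosses for spots left out as outliers. The usable spots of NrasG12D/+ replicate 1 lie between 111 and 144, while no spot of another array is above 21.9.

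This Selp probe was well above background on none of the 3 NrasG12D/G12D arrays, and neither was it on Nras+/+ replicate 1 or NrasG12D/+ replicate 3, so the order among these arrays was not measured. The NrasG12D/G12D mean was -5.01 ± 0.35 (SD, n = 3), against -3.94 ± 0.79 (n = 2) in Nras+/+ and -3.34 ± 1.63 (n = 3) in NrasG12D/+. The differences of NrasG12D/G12D from these groups have no lower limit, since only 1 of 2 Nras+/+ and 2 of 3 NrasG12D/+ arrays were measured. Neither passed in limma, with log2 changes of -1.07 (SE 1.0, adjusted p = 0.778) and -1.66 (SE 0.89, adjusted p = 0.807). The latter was -0.72 without NrasG12D/+ replicate 1. With the slide as a block the difference from Nras+/+ was 0.15, of the opposite sign. NrasG12D/+ against Nras+/+ was 0.59 (SE 1.0, adjusted p = 0.884), and -0.34 without NrasG12D/+ replicate 1.

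Selp probe A_52_P57843, in another stretch of the gene, did not show that array as high. Its signals were 31.5 and 8.38 on the Nras+/+ arrays, 15.5, 24.4 and 4.58 on the NrasG12D/+ arrays and 11.5, 21.8 and 5.44 on the NrasG12D/G12D arrays. It was above background on 4 of the 8 arrays, at least 1 in each group, and the groups overlapped. Log2 changes were -1.11 (SE 0.93), -0.97 (SE 0.93) and 0.15 (SE 0.83), with limma adjusted p-values of 0.810, 0.784 and 0.984, for NrasG12D/+ and NrasG12D/G12D against Nras+/+ and between the mutants. The last was -0.56 without NrasG12D/G12D replicate 2. The Pf4 probe outside the rule, A_51_P441426, was above background on no array, with signals of 2.11 to 3.06.

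The transcription factor genes were near the limit of detection. Nfe2, the blood-specific subunit of NF-E2, had signals of 2.85 and 10 on the Nras+/+ arrays, 11.4, 24.2 and 2.15 on the NrasG12D/+ arrays and 2.65, 5.27 and 21.3 on the NrasG12D/G12D arrays. In each group 1 array was above background: Nras+/+ replicate 2, NrasG12D/+ replicate 2 and NrasG12D/G12D replicate 3. The log2 changes were -0.02 (SE 1.27), -0.09 (SE 1.27) and -0.07 (SE 1.13), with limma adjusted p-values of 0.997, 0.985 and 0.996. All 3 turned sign under several settings, among them the deposited value table (0.20, 0.55 and 0.36), and the 95% interval of the first, -2.89 to 2.84, allows a large change in either direction.

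Fli1, an ETS factor of megakaryocyte and stem cell genes, stood out on a single control array. Probe A_51_P370600 had signals of 1.91 and 423 on Nras+/+ replicates 1 and 2, which are the lowest and the highest of all 8. The NrasG12D/+ arrays gave 18.6, 6.46 and 2.18, of which the first was above background, and the NrasG12D/G12D arrays gave 3.87, 2.34 and 1.98, none above it. Against Nras+/+, the log2 change was -3.86 (SE 1.99, limma adjusted p = 0.715) for NrasG12D/G12D and -2.83 (SE 1.99, adjusted p = 0.809) for NrasG12D/+. Without Nras+/+ replicate 2 these were 0.43 and 1.46, so both rest on that array. With 1 of 2 control arrays measured and no NrasG12D/G12D array, no lower limit of that fold follows. Between the mutants only 1 of 6 arrays was above background, so their order was not measured (fitted log2 change -1.03, SE 1.78, limma adjusted p = 0.939). Fli1 probe A_52_P821 did not repeat the high value: its signal on Nras+/+ replicate 2 was 6.66, and no array was above background.

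Of the 12 member probes, 8 were above background on at least 2 arrays and were tested, and none passed in any comparison. In NrasG12D/+ against Nras+/+, 0 member probes passed in limma (Benjamini-Hochberg adjusted p under 0.05), as did 0 of all 18373 probes (0%). At an unadjusted p under 0.05 there were 0 members beside 874 probes overall (4.76%, of which 417 were higher and 457 lower). In NrasG12D/G12D against Nras+/+ the count was 0 of all 18318 probes (0%), and at the unadjusted p it was 0 members and 1201 probes (6.56%). Between the mutant genotypes it was 0 of 18324 (0%), and 0 members and 1062 probes (5.8%) at the unadjusted p. Groups were taken not to overlap where every array of the higher group was above background and above the highest level that each array of the other group allows, which for an undetected probe is at least that array's lowest detected level. By this rule, set after the values were seen, 0 of 8 members did not overlap in each comparison, beside 17.6%, 18.7% and 5.75% of all probes in the same order. Both Selp probes, Nfe2 and Fli1 A_51_P370600 had no group with every array above background, so the rule could only call them overlapping. Between the mutants the same held for Vwf A_51_P103406. The 0 of 8 is therefore no result about these probes.

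The direction of the members' changes depended on the scaling. Of the 8 tested, 2 were higher and 6 lower in NrasG12D/+ than in Nras+/+, with a median log2 change of -0.25 beside -0.29 for all probes. In NrasG12D/G12D 1 was higher and 7 lower, with a median of -0.71 beside -0.47. Between the mutants 2 were higher and 6 lower in NrasG12D/G12D, with a median of -0.46 beside -0.20. In the deposited value table the counts were 4 higher and 4 lower in both comparisons with Nras+/+ and 3 and 5 between the mutants. With scaling to the median they were 4 and 4, 3 and 5, and 2 and 6. The comparisons share arrays, so these counts are not independent of each other.

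**Figure D3:**
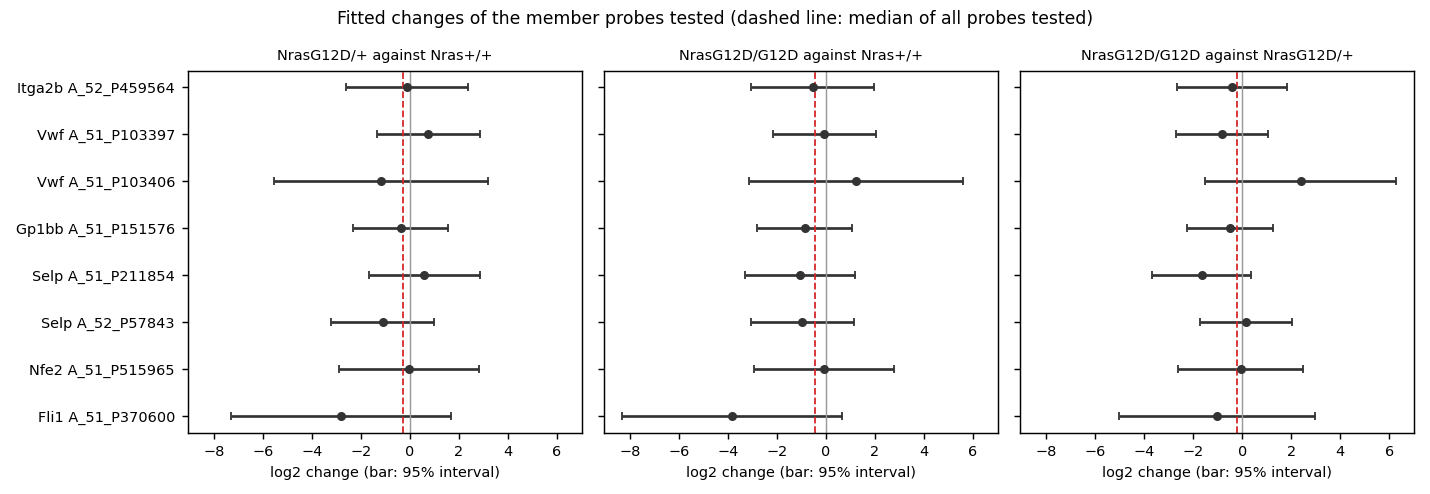
Log2 change (points) and 95% interval (bars) of the 8 member probes tested, in the 3 comparisons, with a solid line at 0 and a dashed line at the median of all probes tested. All intervals include 0, and the widest are those of Vwf A_51_P103406 and Fli1 A_51_P370600.

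Values that take the slide into account are given next, but slide and sample cannot be told apart here. NrasG12D/+ replicate 3 was the only array of its genotype on slide 2. Leaving it out gave the same changes of NrasG12D/+ against Nras+/+ as the slide block. With the slide as a block, or within slide 1, NrasG12D/+ against Nras+/+ gave 0.07 for Itga2b, -0.75 for Gp1bb, -0.04 and -1.70 for Vwf probes A_51_P103397 and A_51_P103406, 1.0 and -0.85 for Selp probes A_51_P211854 and A_52_P57843, 0.52 for Nfe2 and -2.49 for Fli1. Within slide 2, where NrasG12D/+ has 1 array, NrasG12D/G12D against it gave -0.04 for Itga2b, -1.24 for Gp1bb, -2.39 and 1.33 for the Vwf probes, -0.85 and 0.67 for the Selp probes, 1.03 for Nfe2 and -0.35 for Fli1, in the same order. Of these, Selp A_51_P211854 and Fli1 were above background on no array of slide 2, so their values are differences between undetected levels. Nras+/+ and NrasG12D/G12D never shared a slide. No member passed in limma in any of these fits.

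Some members stood high on 1 array. The gap between the highest array and the highest level that any other array allows was set beside that of all 22864 probes above background somewhere, a measure and a limit chosen after the values were seen. The gap was at least 8-fold for 8.2% of those probes and for 2 of the 9 member probes: 58.0-fold for Vwf A_51_P103406 on NrasG12D/G12D replicate 3 and at least 48.3-fold for Fli1 A_51_P370600 on Nras+/+ replicate 2. It was at least 3.53-fold for Gp5 and 3.76-fold for Selp A_51_P211854, both on NrasG12D/+ replicate 1. For Itga2b it was 1.82-fold and for Gp1bb 1.43-fold. The high arrays of these Vwf, Fli1 and Selp probes belonged to all 3 genotypes, and the further probes of these genes were not high on the same arrays. Over all probes, 1875 had a gap of at least 8-fold, and 518 of them were highest on NrasG12D/+ replicate 1. The other arrays held 95 to 309 each.

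**Figure D4:**
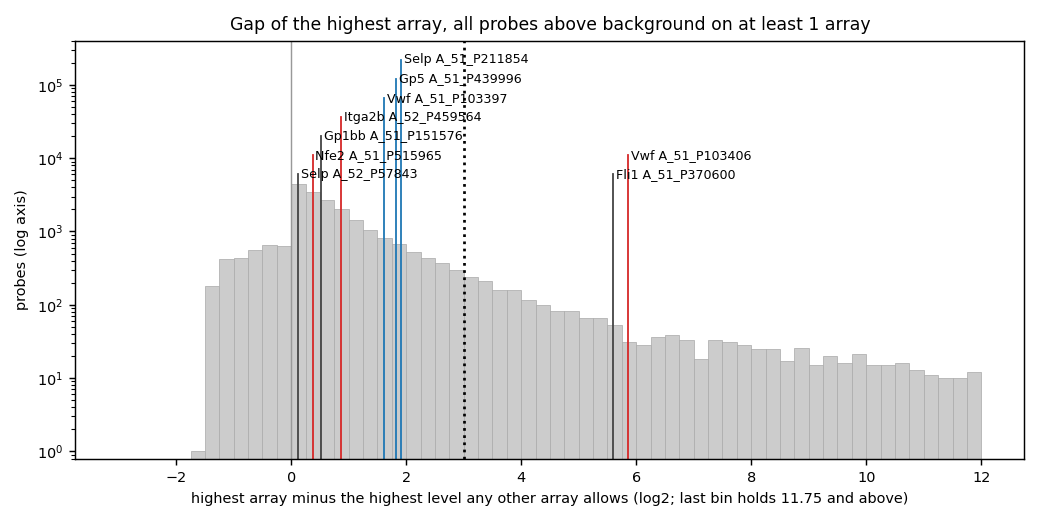
Number of probes (log axis) by the gap between their highest array and the highest level that any other array allows (log2, horizontal axis, below 0 where an undetected array could be higher), for the 22864 probes above background on at least 1 array, with lines at the member probes coloured by the genotype of the highest array (grey Nras+/+, blue NrasG12D/+, red NrasG12D/G12D). The dotted line marks 8-fold, which the lines of Vwf A_51_P103406 and Fli1 A_51_P370600 exceed.

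A wider list of megakaryocyte and platelet genes had 37 members, of which 36 were on the array and 27 were tested by their brightest probe. None passed in limma in any comparison. In NrasG12D/+ against Nras+/+ 14 were higher and 13 lower in mean (median log2 change 0.11, beside -0.29 for all probes). In NrasG12D/G12D against Nras+/+ these were 12 and 15 (median -0.23 beside -0.47), and between the mutants 10 and 17 (median -0.41 beside -0.20). Probes for the collagen receptor Gp6 and the transcription factors Runx1, Tal1 and Zfpm1 were above background on all 8 arrays. Gp1ba, the ligand-binding chain of the von Willebrand factor receptor, was above background on 7, Gata1 on 4, and Gata2 and the platelet chemokine gene Ppbp on none.

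Gfi1b is a repressor needed for megakaryocyte and red cell development. In NrasG12D/+ against Nras+/+ it was the 1 gene of the 27 tested with an unadjusted limma p under 0.05, beside 4.76% of all probes. No gene of the list reached that in the other comparisons, beside 6.56% and 5.8% of all probes. Gfi1b signals were 2.69 and 2.5 on the Nras+/+ arrays, 230, 99.1 and 5.75 on the NrasG12D/+ arrays and 59.3, 3.26 and 2.63 on the NrasG12D/G12D arrays. NrasG12D/+ was above background on 2 of 3 arrays and Nras+/+ on neither (log2 change 3.62, SE 1.41, limma adjusted p = 0.809). NrasG12D/+ replicate 3 was not above background either, so its order against the controls was not measured and no lower limit of the fold follows. The log2 change was 0.67 with normexp background correction.

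Itgb3, the β3 chain that pairs with αIIb, had 1 of its 2 probes bright on every array, and is named here because its values were seen to be high. Probe A_51_P237893 had signals of 23300 on Nras+/+ replicate 2, 43900, 44300 and 37400 on the NrasG12D/+ arrays and 42800 and 41500 on NrasG12D/G12D replicates 1 and 2. The spot was flagged as uneven on Nras+/+ replicate 1 (22200) and NrasG12D/G12D replicate 3 (30800) and was left out there. Its other probe, A_52_P553890, had signals of 2.89 to 18.7 and was above background on 2 arrays, so the Itgb3 probes did not match either.

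Markers of other cell types were looked at because several members are shared with them. Of 14 HSC genes on the array, 5 to 9 were above background per array, with Ly6a, Slamf1 and Mllt3 on all 8, Kit on 1 and Procr on none. This list also held Flt3 and Cd48, which mark progenitors rather than HSCs, and each was above background on 7 arrays. Of 11 endothelial genes, 3 to 6 were above background per array. Emcn, Eng and Cldn5 were so on all 8 arrays, Plvap on 7, Pecam1 on 5 and Tie1 on 1, and Cdh5, Kdr, Tek, Sele and Robo4 on none. The endothelial list summed to 1.18 and 1.69 times the array's 75th percentile on the Nras+/+ arrays, to 134.69, 0.80 and 1.19 on the NrasG12D/+ arrays and to 1.5, 1.25 and 3.93 on the NrasG12D/G12D arrays. The highest sum, on NrasG12D/+ replicate 1 where Selp A_51_P211854 and Gp5 were high, was 1.08 without Tie1. On NrasG12D/G12D replicate 3, where Vwf A_51_P103406 was high, 3 of the 11 endothelial genes were above background, the fewest of the 8 arrays. Cldn5 made up 3.40 of the sum of 3.93 there. The erythroid list had 3 to 6 of 9 genes above background per array, with sums of 0.51 to 1.28. Of 8 genes of mature neutrophils and their precursors, 1 to 4 were above background per array, with Mpo on all 8 and S100a8 and Camp on none. Their sums were 1.09 and 1.3 on the Nras+/+ arrays, 231.6, 1.04 and 0.85 on the NrasG12D/+ arrays and 0.55, 11.2 and 151.4 on the NrasG12D/G12D arrays. NrasG12D/+ replicate 1, where Selp A_51_P211854 and Gp5 were high, had the highest sum, of which Mpo made up 161.4 and S100a9 made up 70.0. NrasG12D/G12D replicate 3, where Vwf A_51_P103406 was high, had the next, of which Retnlg made up 150.8. Sums of the monocyte and macrophage list were 0.31 to 4.42, and those of the T and NK cell list 0.85 to 12.3. The part of these cell types in the members' results was not tested.

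The probes whose profile over the 8 arrays was nearest to that of a member were found by the root mean square difference of centred log2 levels, among 8337 annotated probes above background on at least 6 arrays. For Gp1bb these were 1110004F10Rik (0.24), Olfr1182 (0.25) and Prelid3a (0.26), beside a median of 1.1 over all candidates. For Itga2b they were Birc3 (0.38), Ppy (0.43) and Myo1d (0.44), beside a median of 1.40. With 8 arrays this is a description of likeness only.

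The sequences just upstream of the genes are shown for Gp1bb and Gp5, subunits of 1 receptor of which the first was detected on all 8 arrays and the second on 1. RefSeq's table for GRCm38.p6 held 6 of the 9 genes: Itga2b, Pf4, Gp9, Gp1bb, Gp5 and Selp. The 250 bases before the start were searched on both strands for 4 motifs. The GATA factor motif AGATAA was found upstream of 1 of the 6 genes, against 9.988% of 32851 promoters. The ETS motif AGGAAG, of the kind that Fli1 binds, was found upstream of 5, against 29.48% of promoters. A further ETS motif, CCGGAA, is held by 12.03% of promoters and was found upstream of none. Neither was the motif of NF-E2 and AP-1 factors, TGAGTCA, which 4.463% of promoters hold, and this says only that these letters are not in this window. Capitals in the Gp5 sequence mark its matches, all on the reverse strand: the GATA motif at -93 and -77 and the first ETS motif at -48 from the start. Gp1bb had no match to the 4 exact motifs, which does not say that it lacks other forms of such sites. The Gp1bb sequence is chr16:18622404-18622653 and the Gp5 sequence chr16:30310782-30311031, both on the minus strand of GRCm38.p6.
Gp1bb: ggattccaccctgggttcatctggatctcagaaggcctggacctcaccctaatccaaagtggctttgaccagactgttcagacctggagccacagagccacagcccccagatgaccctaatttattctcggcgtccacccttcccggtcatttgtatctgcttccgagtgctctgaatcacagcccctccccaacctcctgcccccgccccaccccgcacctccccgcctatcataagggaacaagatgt
Gp5: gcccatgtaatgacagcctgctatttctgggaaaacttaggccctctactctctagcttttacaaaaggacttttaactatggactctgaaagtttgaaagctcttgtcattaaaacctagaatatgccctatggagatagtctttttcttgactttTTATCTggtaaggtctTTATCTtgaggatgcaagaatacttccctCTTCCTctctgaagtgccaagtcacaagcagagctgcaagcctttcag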

How the data were processed

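Total RNA of 8 HSC samples was measured on 1-colour (Cy3) Agilent arrays of 45018 spots, 1639 of them controls. Per the file headers, the deposited processed signal is an intensity that Agilent Feature Extraction 10.5.1.1 background-subtracted and detrended within each array, with no scaling between arrays. The deposited mean and local background signals are intensities without correction. Other columns are, per the file headers, flags of 0 or 1. The deposited value table is a ratio: each column equals the processed signal over that array's median of non-control spots (largest relative deviation 1.7e-06), on a linear scale with a median of 1 and no centring.

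Outlier spots, 120 to 464 on an array, were left out, and none was saturated. The log2 processed signal of a probe is the mean over its spots minus the 75th percentile of the 6188 probes that were above background throughout. A probe counts as above background where over 50% of its usable spots do. The 18389 probes above background on at least 2 arrays were tested singly with limma 3.58.1 in R 4.3.3 (lmFit and eBayes, two-sided, 3 groups in 1 fit, Benjamini-Hochberg), and missing values left 18318 to 18373 per comparison. The fit was tested on simulated data. A group with no array above background gives a bound, "at least N-fold": the brighter group's mean against, per array, the higher of 2 values, the dim probe's level and the lowest level of any probe above background. Probes kept the design's gene names for the rule, and others were named through RefSeq (24496 by accession, 6234 by symbol, 2411 by synonym, 8033 by the file's name). The 8 arrays limit the precision: the median SE of a log2 change was 0.98, 0.98 and 0.88 in the 3 comparisons.

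The members, lists and motifs were chosen with earlier results of these data known. Named were all member probes, genes of the wider list with an unadjusted p under 0.05, and the 3 probes nearest in profile to each of 2 members. Further wider-list genes, cell type markers, Itgb3 and Septin5 were named after their values were seen, and some list genes are not reported here. Same-numbered arrays did not deviate together (correlations of -0.09 to 0.08 over 7 pairs), so numbers were not used as pairs. Alternatives varied the scaling, normalization, background correction, source of values, filter, probe per gene, samples in the fit, slide, replicate number and each array left out.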

Additional observations from a re-analysis of the deposited data

How the results depend on the processing

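No member probe passed in limma under any alternative that gave it a value: of 451 member changes recomputed, 393 kept their sign and 58 turned it, and the lowest adjusted p was 0.202, for the lower Fli1 level of NrasG12D/G12D than Nras+/+ without Nras+/+ replicate 1. With a filter that kept only probes above background on all 8 arrays, 5 of the tested member probes had no value. The count of kept signs does not measure stability, because some alternatives cannot move a change. Another filter, or leaving out an array of the genotype not compared, left Itga2b in NrasG12D/+ against Nras+/+ at -0.12. Others repeat each other: for that change the slide block, slide 1 alone and leaving out NrasG12D/+ replicate 3 gave the same estimate. For each change below, the cause of the turn was not tested.

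Counts of all probes past the threshold, main value 0, in NrasG12D/+ against Nras+/+ were 1 in the value table and 1 with no filter. When NrasG12D/G12D was set against Nras+/+ they were 3 with quantile normalization, 2 with no filter, 1 in a fit of only these groups and 1 with the slide as a block, and between the mutants 9 with the slide as a block. Leaving out each array gave 0 to 11, 0 to 10 and 0 to 2, the highest without Nras+/+ replicate 2, Nras+/+ replicate 2 and NrasG12D/+ replicate 2. The members' median change moved from -0.25 to -0.60 with the replicate block in NrasG12D/+ against Nras+/+, and from -0.71 to -0.066 in the value table in NrasG12D/G12D against Nras+/+. Leaving out each array gave medians of -0.79 to 0.28, -1.0 to -0.24 and -0.81 to 0.10.

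In NrasG12D/+ against Nras+/+, Itga2b turned to 0.084 (scaling over all probes), 0.15 (median), 0.10 (value table) and 0.074 (slide block and within slide 1), and Nfe2 to 0.18, 0.25, 0.20 and 0.52 in the same settings. Vwf A_51_P103397 turned to -0.066 with normexp and -0.041 with the slide (as a block or within slide 1), and Selp A_51_P211854 to -0.017 with normexp. In NrasG12D/G12D against Nras+/+, Vwf A_51_P103397 turned to 0.43 (all probes), 0.21 (median), 0.37 (quantile) and 0.57 (value table), and Nfe2 to 0.41, 0.19, 0.29 and 0.55, and to 1.55 with the slide block. Itga2b turned to 0.10 (value table) and 0.035 (slide block), Selp A_51_P211854 to 0.15 (slide block), and Vwf A_51_P103406 to -0.37 (slide block) and -0.23 (replicate block). Between the mutants, Nfe2 turned to 0.23 (all probes), 0.31 (quantile), 0.27 (normexp), 0.36 (value table) and 1.03 (slide block and within slide 2), and with normexp Itga2b turned to 0.028 and Fli1 to 0.083.

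Without each array in turn, NrasG12D/+ against Nras+/+ ranged from -0.57 to 0.13 for Itga2b, -0.041 to 1.45 for Vwf A_51_P103397, -1.26 to 0.52 for Gp1bb, -0.34 to 1.16 for Selp A_51_P211854, -1.32 to 1.27 for Nfe2 and -7.11 to 1.46 for Fli1. NrasG12D/G12D against Nras+/+ ranged from -1.65 to 0.19 for Itga2b, -0.78 to 0.63 for Vwf A_51_P103397, -1.16 to 2.45 for Vwf A_51_P103406, -1.76 to 0.017 for Gp1bb, -1.39 to 1.2 for Nfe2 and -8.14 to 0.43 for Fli1. Between the mutants the ranges were -1.53 to 0.31 for Itga2b, -0.56 to 0.62 for Selp A_52_P57843 and -0.95 to 0.86 for Nfe2. A group left with 1 array was taken to vary like the others.

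Same-numbered arrays did not deviate together, so the replicate block is not a pairing. It made no member pass. Probes near background limit what can be seen: 9 of the 12 member probes were not above background on every array, and their levels there are bounds.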
